A study of Sus scrofa with 2 samples.

Results

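HNF4A, POU2F3, SIM2, ESRRB, SALL3, ETV4, GATA3, FOXI1, MEIS1 and ZFPM2 are 10 transcription factors that mark cell types of the kidney. They were picked by gene symbol from the 31908 genes of the deposited count matrices, and each of the 10 symbols was present. Cells of a nephron share a genome but not a function: the proximal tubule reclaims sugars, phosphate and amino acids, the thick ascending limb and the distal convoluted tubule recover salt, and the connecting tubule and collecting duct set the final salt, water and acid content of urine. Each segment keeps its program through a combination of DNA-binding factors, of which HNF4A (proximal tubule), FOXI1 (intercalated cells) and GATA3 (collecting duct and mesangium) are textbook examples. Because the RNA of nuclei was counted, transcripts of such factors are read here close to where they are made.

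The data came from single-nucleus RNA-seq of pig kidney cortex. Kidneys were obtained from a slaughterhouse, flushed with heparinised saline and kept cold. Cortex was sampled before perfusion (unperfused, 1 library) and after 2 h of warm machine perfusion of the isolated organ at 100 mmHg and 37 °C (perfused, 1 library). The sources used here do not say whether both pieces came from 1 animal, and time out of the cold, temperature, pressure and flow differed together between the libraries, so that their parts cannot be told apart.

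With 1 library per condition no difference between conditions could be tested. Levels are given as CPM, the unique molecular identifiers (UMIs) of a gene per 1000000 UMIs of all nuclei of a class summed in 1 library. Every interval is an exact 95% interval that covers counting error only, and ratios are log2 values of perfused over unperfused CPM. The libraries held 7179 and 6205 barcodes with 34415254 and 35525592 UMIs, of which 6389 and 5421 nuclei were kept, with medians of 3755 and 4383 UMIs. They shared 14 barcode sequences among all barcodes. Deeper nuclei in the perfused library raise the share of nuclei with a UMI, so shares are also given after thinning each nucleus to 1000 UMIs.

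Nuclei were sorted into classes from fixed marker lists, with the listed transcription factors kept out of the clustering. The 14 classes that could be named were proximal tubule-like (PT), injured proximal tubule-like (INJ-PT), thin limb-like (THIN), thick ascending limb-like (LOH), distal convoluted tubule-like (DCT), connecting tubule-like (CNT), principal cell-like (PC), type A and type B intercalated-like (IC-A and IC-B), podocyte-like (PODO), endothelial-like (EC), stroma-like (STROMA), immune-like (IMM) and cycling-like (CYCLING). Clusters 11 and 13 had too few raised markers of the list that matched them best and stayed unnamed. That list, the one with the highest mean fold over other nuclei, was THIN for cluster 11 (0 raised). For cluster 13 it was the parietal epithelium list (2 raised). Raised markers of other lists, PT included, were not counted for these clusters. The names were rebuilt from the counts and are not the authors' own annotation.

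For 9 of the 10 factors the group with the highest mean CPM over both libraries was a named class. Among named classes alone, the highest stood at least 2-fold above the next for 7 of the 10, POU2F3 in PODO included. Of all 7142 genes with a symbol that reached 50 CPM in a class, 23.1% stood at least 2-fold above the next class by the same rule. POU2F3 had its highest group in unnamed cluster 11, so its place in PODO depends on the rule that left this cluster unnamed. The map of relative levels was the same in outline in both libraries, with 1 block of factors in the distal nephron (ESRRB, SALL3, ETV4 and GATA3), and a pair in the stroma (MEIS1 and ZFPM2). SIM2 and FOXI1 each reached 20% of their highest mean in 2 named classes. HNF4A did so in PT and, at 27.5% or less, in INJ-PT, CYCLING and IMM.

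**Figure D1:**
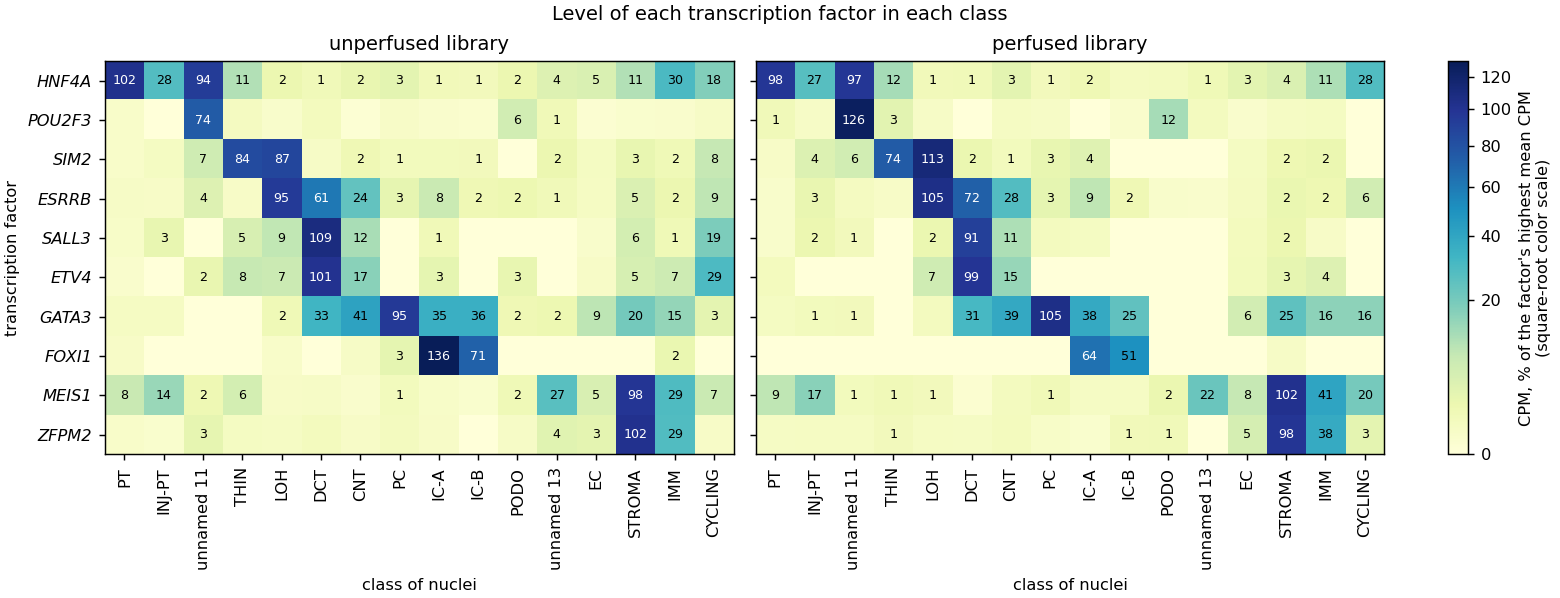
Each row is a transcription factor and each column a class of nuclei, for the unperfused (left) and perfused (right) library. Color and printed values give the CPM as a percentage of the factor's highest mean CPM over both libraries (values under 1 are not printed, and the color scale is a square root). POU2F3 is highest in unnamed cluster 11, and the DCT column holds 4 factors at 20% or more of their highest mean.

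HNF4A (ENSSSCG00000007371), a nuclear receptor that drives proximal tubule and liver metabolism, reached 562 CPM in unperfused and 537 CPM in perfused PT nuclei, and 85.0% of its UMIs lay in this class. Unnamed cluster 11 held nearly as much, 518 and 535 CPM. The gap between these groups, both libraries summed, was 0.05 on the log2 scale (-0.04 to 0.15), within counting error. INJ-PT nuclei carried 153 and 149 CPM, 1.87 log2 units below PT (1.66 to 2.09), and at least 1 HNF4A UMI was seen in 41.9% and 44.4% of them against 89.9% and 88.3% of PT nuclei. In LOH nuclei, of another tubule segment, the share was 4.41% and 3.35%, at median depths of 4154 and 5753 UMIs against 5288 and 6623 in PT. After thinning, 42.4% and 42.2% of PT nuclei held an HNF4A UMI.

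Within PT, HNF4A was higher in cluster 3, led by the basolateral cation carrier SLC22A2 and ADCY8, than in cluster 1, led by SLC7A8 and the lactate carrier SLC5A12. Cluster 1 had 515 CPM and cluster 3 had 663 CPM in the unperfused library. In the perfused library the values were 479 and 665 CPM. The difference was -0.37 (-0.44 to -0.29) and -0.47 (-0.56 to -0.39) on the log2 scale, in the same direction in both libraries.

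Immune-like nuclei also carried HNF4A UMIs, 164 CPM unperfused and 62.2 CPM perfused, a ratio of -1.40 (-1.84 to -0.96). In the same nuclei the 11 PT markers summed to 3920.0 CPM and 2882 CPM, and none of the 11 was at 0 in either library. Free RNA, estimated from tubule genes that immune nuclei should lack, made up at most 27.3% and 21.3% of IMM UMIs, against 8.59% and 4.49% in PT. The part of free RNA in the HNF4A counts of IMM was not tested.

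POU2F3 (ENSSSCG00000028237), the octamer-binding factor known as the master regulator of tuft cells, was concentrated in a small group of nuclei. Unnamed cluster 11 held 85.9% of its UMIs, with 728 CPM (325 UMIs in 71 nuclei) in the unperfused and 1234 CPM (1552 UMIs in 174 nuclei) in the perfused library. PODO, the highest named class, had 59.1 and 120.4 CPM from 25 and 27 UMIs, 3.78 log2 units below cluster 11 (3.38 to 4.20). At least 1 UMI was found in 83.1% and 96.0% of cluster 11 nuclei, which became 43.7% and 66.1% after thinning, against 1.07% and 1.61% of LOH nuclei. Of all nuclei with 3 or more POU2F3 UMIs, 49 of 55 and 156 of 179 lay in cluster 11, which made up 1.11% and 3.21% of the nuclei.

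Cluster 11 nuclei carried proximal tubule RNA. The endocytic receptors LRP2 and CUBN stood at 2589 and 5054 CPM in the unperfused library and at 2989 and 6382 CPM in the perfused one. In PT nuclei LRP2 had 3601 and 3784 CPM. The early-segment carrier SLC5A12, by contrast, had 126 and 40.5 CPM in cluster 11 against 2213 and 2054 CPM in PT, while SLC22A2 had 381 and 504 CPM against 129 and 174 CPM. Leading genes of the cluster beside POU2F3 were SLC5A8, BRINP1 and NRG3. HNF4A and POU2F3 UMIs were found together in 54 of 71 unperfused and 156 of 174 perfused nuclei of the cluster.

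A list of 16 tuft cell genes, of which 13 were matched, was read in the same nuclei. ASCL2, SOX9, GFI1B, CHAT and HPGDS had 26 UMIs or fewer in all nuclei together, so their 0 UMIs in cluster 11 carry little information. PTGS1, the prostaglandin synthase also called COX1, had 0 UMIs there of 205 in all. It was highest in PC, at 28.4 and 59.8 CPM from 21 and 49 UMIs, a ratio of 1.07 (0.31 to 1.89), the 1 of 6 listed genes with enough UMIs that was 2-fold apart. The better counted genes were low in cluster 11. TRPM5, a cation channel of taste and tuft cells, had 17.9 and 3.97 CPM there against 583 and 423 CPM in THIN, its highest class. PLCG2, a phospholipase, had 22.4 and 15.9 CPM against 259.8 and 288 CPM in IC-A. GNAT3, AVIL and IRAG2 had 7 UMIs or fewer in cluster 11 in each library. SUCNR1, the succinate receptor, was the 1 listed gene that was highest in cluster 11 with counts to show it, at 121 and 159 CPM, and PT followed at 104 CPM.

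Lower down, POU2F3 UMIs in PT lay mostly in cluster 3, with 24 of 32 unperfused and 94 of 103 perfused UMIs. Cluster 3 had 7.44 CPM and cluster 1 had 1.16 CPM in the unperfused library, and 36.5 and 1.58 CPM in the perfused one. In PT as a whole the ratio between libraries was 1.98 (1.39 to 2.60), from 32 and 103 UMIs, and in cluster 11 it was 0.76 (0.59 to 0.94). In PODO it was 1.03 (0.19 to 1.87).

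SIM2 (ENSSSCG00000027179), a bHLH-PAS repressor and partner of ARNT, was a factor of the thick ascending limb in these nuclei. LOH had 235 CPM (780 UMIs) unperfused and 306 CPM (1515 UMIs) perfused, with 90.7% of all SIM2 UMIs. THIN followed closely, with 226 and 201 CPM from 31 and 54 UMIs, 0.41 log2 units below LOH (0.09 to 0.74). The gap from LOH to the next named class varied with the clustering: 4.29 at resolution 0.3, 4.27 without the mitochondrial limit and 2.43 with doublets kept. That class need not be THIN in these settings, so no change of SIM2 in thin limb-like nuclei is read from them. Every other group was far lower: unnamed cluster 11 came next with 17.3 CPM on average, 3.62 log2 units below THIN (3.0 to 4.3). UMIs were present in 48.9% and 68.2% of LOH nuclei (19.7% and 23.6% after thinning) and in 0.450% and 0.665% of PT nuclei.

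ESRRB (ENSSSCG00000002388), an orphan nuclear receptor of the estrogen-related family, spread over 3 neighbouring segments in descending order along the nephron. LOH had 1715 and 1906 CPM, DCT had 1106 and 1309 CPM, and CNT had 436 and 504 CPM. Each step was larger than counting error: LOH over DCT by 0.62 (0.56 to 0.67), DCT over CNT by 1.37 (1.28 to 1.45) and CNT over IC-A by 1.64 (1.48 to 1.81). At least 1 UMI was seen in 94.1% and 96.5% of LOH nuclei (73.8% and 75.8% after thinning), and in 3.82% and 2.49% of PT nuclei. The ratio between libraries was 0.15 (0.11 to 0.20) in LOH, 0.24 (0.14 to 0.34) in DCT and 0.21 (0.07 to 0.35) in CNT.

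SIM2 and ESRRB split apart inside the LOH class. Cluster 2, which holds most of the class, was led by the salt carrier SLC12A1 and SIM2. Cluster 15, with 100 and 72 nuclei, was led by SCN9A, HS6ST3 and the paracellular magnesium pore CLDN16. SIM2 had 281 CPM in cluster 2 and 10.7 CPM in cluster 15 in the unperfused library, and 341 and 30.2 CPM in the perfused one, differences of 4.72 (3.59 to 6.17) and 3.49 (2.81 to 4.28). ESRRB differed much less, by 0.72 (0.60 to 0.84) and 0.68 (0.57 to 0.79).

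SALL3, the DCT factor described next, ran the other way in the same clusters. It had 65.7 CPM in cluster 15 and 1.45 CPM in cluster 2 unperfused, from 37 and 4 UMIs, and 26.7 and 0.228 CPM perfused, from 15 and 1 UMIs. HS6ST3, a marker from the DCT list, had 1254 and 964 CPM in cluster 15 and 706 and 1146 CPM in DCT. SLC12A3, the thiazide-sensitive carrier that defines DCT, had only 33.7 and 42.7 CPM in cluster 15 against 1034 and 590.2 CPM in DCT, and SLC12A1 had 4540.4 and 5423 CPM there.

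SALL3 (ENSSSCG00000004858), a spalt-like zinc finger factor, reached 155 CPM (236 UMIs) in unperfused and 129 CPM (149 UMIs) in perfused DCT nuclei. CNT was next, with 16.9 and 16.1 CPM, 3.11 log2 units lower (2.72 to 3.53). UMIs were found in 52.7% and 58.1% of DCT nuclei (14.4% and 13.8% thinned) and in 0.281% and 0.249% of PT nuclei. The ratio between libraries was -0.26 (-0.57 to 0.04).

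ETV4 (ENSSSCG00000017379), an ETS factor that acts downstream of FGF and RET signalling in the growing ureteric bud, had the same order of classes. DCT had 92.0 CPM (140 UMIs) and 91.0 CPM (105 UMIs), and CNT had 15.2 and 13.3 CPM, 2.67 log2 units lower (2.23 to 3.12). It was seen in 35.5% and 41.9% of DCT nuclei, 9.96% and 7.59% after thinning, and in 0.112% and 0.249% of PT nuclei. SALL3 and ETV4 were each other's closest match over the 14 named classes, with a Pearson correlation of log2 (CPM + 5) of 0.969 as a description of patterns in the same libraries. Within DCT nuclei they were found together in 54 of 273 and 37 of 148, and ETV4 was seen in 37.5% and 43.0% of nuclei with SALL3 against 33.3% and 40.3% of those without.

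The 13 listed genes of RET, FGF and ERK signalling did not share that class. MET was the 1 gene of the list with its highest level in DCT, at 159 and 178 CPM. RET had 0 and 1 UMIs in DCT and its highest level in EC, at 58.2 CPM. ETV5, the nearest relative of ETV4, was highest in PT, at 145 and 139 CPM. None of the 11 genes with at least 30 UMIs in its own highest class was 2-fold apart between libraries.

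GATA3 (ENSSSCG00000011125), a zinc finger factor needed for the ureteric bud and collecting duct, covered the whole distal nephron. PC had 278 and 307 CPM and stood 1.32 log2 units above CNT (1.12 to 1.51). CNT (120.4 and 113 CPM), IC-A (103 and 111 CPM), DCT (95.9 and 89.3 CPM) and IC-B (104 and 72.5 CPM) followed. Neighbours among these 4 did not differ beyond counting error. At least 1 UMI was seen in 61.4% and 68.2% of PC nuclei (23.3% and 21.3% after thinning), at median depths of 3757.5 and 5383 UMIs, and in 1.01% and 1.16% of PT nuclei. No GATA3 UMI was found in THIN, where 0 of 61 and 0 of 89 nuclei, at median depths of 1781 and 2786 UMIs, allow up to 4.92% and 3.37% of nuclei with a UMI (3 nuclei of the total). Such a limit is on nuclei with a UMI, not on nuclei that express the gene. The ratio between libraries in PC was 0.14 (-0.13 to 0.42).

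FOXI1 (ENSSSCG00000017009), a forkhead factor required for intercalated cells and their proton pumps, was found almost entirely in both intercalated classes. IC-A had 122 CPM (183 UMIs) unperfused and 57.7 CPM (58 UMIs) perfused, and IC-B had 63.8 CPM (43 UMIs) and 45.6 CPM (22 UMIs). The step from IC-B to the next class, PC, was 5.45 log2 units (3.54 to 8.53). FOXI1 was seen in 35.1% and 32.1% of IC-A nuclei (11.1% and 8.21% after thinning), and in 4 of 1779 and 0 of 1203 PT nuclei, where 0 allows up to 0.249% of nuclei with a UMI.

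The ratio between libraries was -1.08 (-1.54 to -0.65) for FOXI1 in IC-A and -0.48 (-1.30 to 0.29) in IC-B. After thinning to 1000 UMIs, IC-A kept 36 and 11 UMIs, or 121 CPM (84.6 to 167) and 82.1 CPM (41.0 to 147), and these intervals overlapped. Nuclei with a single FOXI1 UMI numbered 60 of 299 unperfused and 31 of 134 perfused, and those with 2 or more numbered 45 and 12.

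Genes known to lie downstream of FOXI1 that were highest in IC-A lay nearer to equal levels than FOXI1 in that class. In IC-A, the pump subunits ATP6V0A4 and ATP6V1B1 had 1796 and 518 CPM unperfused and 2129 and 607 CPM perfused. The bicarbonate exchanger SLC4A1 had 235 and 201 CPM and the channel AQP6 had 59.4 and 56.7 CPM. Among 9 listed targets with enough UMIs, none was 2-fold apart between libraries in its highest class. Their median ratio was -0.01, with a range from -0.43 to 0.82. ATP6V1A, SLC4A9, SLC26A4, CA2 and EPN3 were read in IC-B, where FOXI1 itself was at -0.48. Intervals lay below 0 for CA2 and ATP6V1A, and above 0 for ATP6V0A4 and ATP6V1B1. Of all genes, only 6.89% in IC-A and 5.87% in IC-B were 2-fold apart, so finding none among 9 does not set these targets apart from other genes. Pendrin, SLC26A4, which defines IC-B, had 2536 and 2516 CPM there.

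MEIS1 (ENSSSCG00000039161), a homeodomain factor that works with PBX proteins, and ZFPM2 (ENSSSCG00000006038), a cofactor of GATA proteins also called FOG2, were the stromal pair. MEIS1 had 767 and 792 CPM in STROMA and ZFPM2 had 1037 and 1005 CPM. UMIs of MEIS1 were seen in 73.8% and 72.7% of stromal nuclei and of ZFPM2 in 67.4% and 62.6% (49.7% and 50.3%, and 50.5% and 45.6%, after thinning), at median depths of 2425.5 and 2884 UMIs. In LOH nuclei the shares were 0.936% and 4.59% for MEIS1 and 2.14% and 2.61% for ZFPM2. The ratios between libraries were 0.05 (-0.07 to 0.16) and -0.05 (-0.14 to 0.05).

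IMM was the second class of both factors, with 226 and 320.0 CPM of MEIS1 and 291 and 385 CPM of ZFPM2. It stood 1.39 (1.27 to 1.52) and 1.48 (1.37 to 1.60) log2 units below STROMA. With doublets kept, the gap from STROMA to the next named class was 0.42 for both factors, under 2-fold. At resolution 0.3 it was 2.31 for MEIS1 and 4.18 for ZFPM2. The next named class need not be IMM in these settings, so no change of IMM levels is read from them. In IMM nuclei the 8 stromal markers, none of them at 0, summed to 2055 and 2482 CPM, against 4673 and 4509.7 CPM in STROMA. The part of stromal RNA in these IMM counts was not tested.

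MEIS1 was also a proximal tubule transcript at a low level, and unevenly so. PT cluster 1 had 78.6 CPM and cluster 3 had 22.6 CPM unperfused, and 91.6 and 26.0 CPM perfused, differences of 1.80 (1.44 to 2.17) and 1.82 (1.45 to 2.20). This order was the opposite of that of HNF4A in the same clusters. INJ-PT carried 110.4 and 130.3 CPM, and unnamed cluster 13, which held markers CLDN1 and ALDH1A2 of parietal epithelium, carried 208 and 175 CPM. ZFPM2 was at 3.26 and 5.57 CPM in PT and at 1.84 and 5.86 CPM in INJ-PT.

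Within STROMA, 13 subclusters were read, of which 3 could be named: mesangial-like (subcluster 5), smooth muscle and pericyte-like (subcluster 6) and fibroblast-like (subcluster 10). In subclusters 1, 7, 8 and 11 no marker of the list that matched them best, the fibroblast list, was raised over the other stromal nuclei. Markers of the other stromal lists were not counted there. Together these 4 subclusters held 561 and 594 CPM of MEIS1 and 749 and 848 CPM of ZFPM2. Subcluster 1 (33 and 121 nuclei) was led by STAT4 and CAMK4, subcluster 7 by DGKI and NOTCH4, subcluster 8 by ESRRB and TMEM72, and subcluster 11 (21 and 12 nuclei) by KCNK5 and the proximal tubule gene CUBN. Summed IMM markers in STROMA were 863 and 2049 CPM, and their part in the stromal levels was not tested. Without these 4 subclusters, a choice made after seeing the data, MEIS1 had 912 and 1000.4 CPM and ZFPM2 had 1238 and 1171 CPM in the remaining 298 and 415 nuclei. Their ratios between libraries were then 0.13 (-0.00 to 0.27) and -0.08 (-0.20 to 0.04).

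MEIS1 was present in all 13 subclusters, from 316 CPM to 1308 CPM in the unperfused library and from 387 CPM to 1553 CPM in the perfused library. ZFPM2 ranged far more widely: subcluster 2, which carried the fibroblast markers PDGFRA and C7, had 2183 and 2799 CPM, whereas subclusters 5, 9 and 12 had 84.0 CPM or less in each library.

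GATA3 was the mirror image of ZFPM2 in these 3 subclusters. The mesangial-like nuclei had 588 and 520.2 CPM of GATA3 against 33.3 and 49.7 CPM in the other stromal nuclei, 4.14 (3.45 to 4.83) and 3.39 (2.91 to 3.85) log2 units higher. They held 5 ZFPM2 UMIs (84.0 CPM) unperfused against 1084 CPM in the other stroma, and 0 of 46 nuclei held one perfused, at least 42.1-fold below the other stroma. Subcluster 12 had 376 and 158 CPM of GATA3 and 34.2 and 47.4 CPM of ZFPM2. Subcluster 9 had 295 and 420.0 CPM of GATA3.

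Among single stromal nuclei, ZFPM2 was seen in 38.5% and 44.0% of those with a GATA3 UMI and in 70.7% and 65.6% of those without, although the nuclei with GATA3 were deeper (medians of 2883 and 4058.5 against 2363 and 2666 UMIs). The share of nuclei with MEIS1 did not follow that split. It was 79.5% and 78.6% of stromal nuclei with GATA3, the deeper ones, and 73.2% and 71.7% of those without. In CPM, MEIS1 was lower in the mesangial-like nuclei than in the other stroma, at 521 against 779 CPM unperfused (-0.58, -1.15 to -0.07). Perfused, the values were 570.5 against 804 CPM (-0.49, -0.87 to -0.14). ESRRB UMIs in STROMA, 103 and 100 in all, came mostly from subcluster 8, which held 87 and 76 of them. That subcluster had a median of 7421 UMIs per nucleus.

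**Figure D2:**
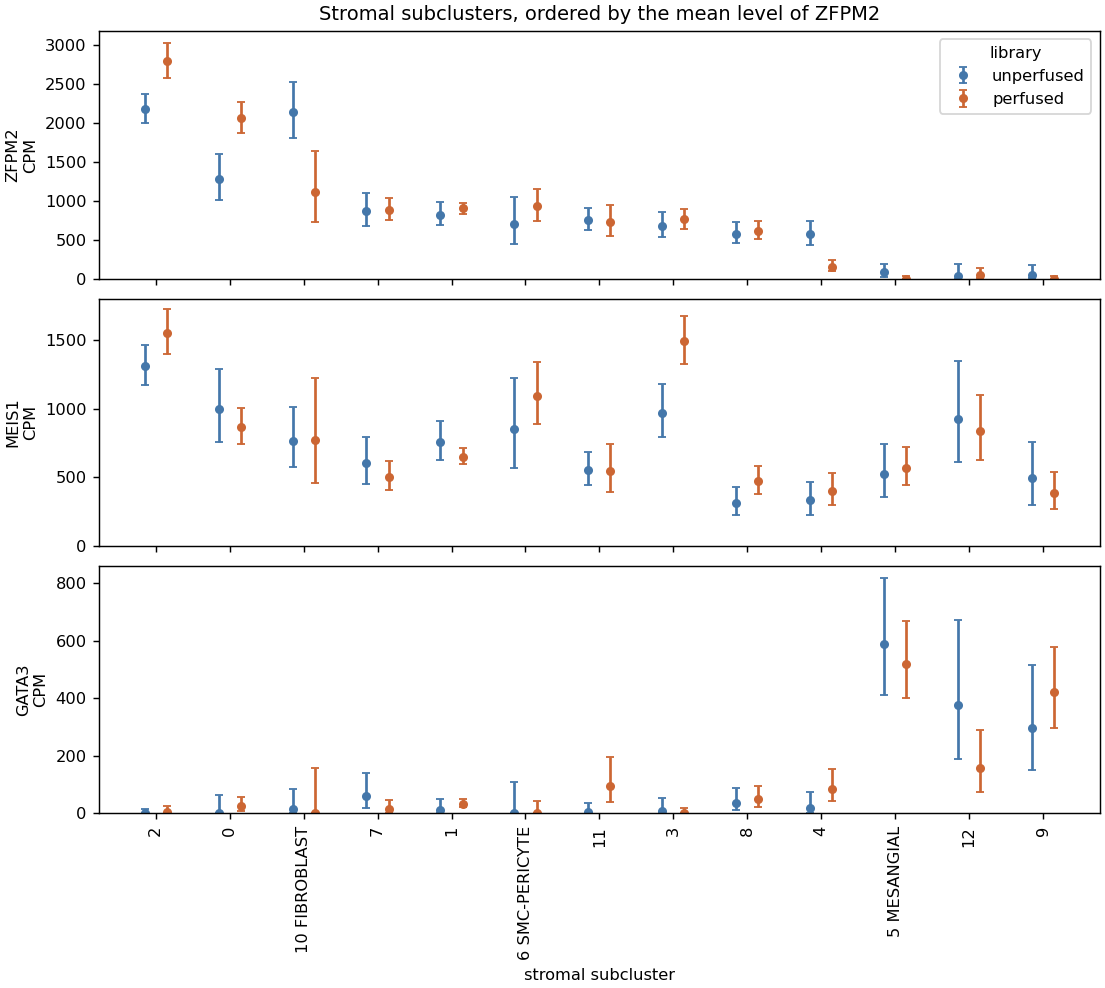
CPM of ZFPM2, MEIS1 and GATA3 (y axes, linear) in each of the 13 stromal subclusters (x axis, ordered by the mean ZFPM2 level) in the unperfused and perfused library, with exact 95% counting intervals as bars. In subclusters 5, 12 and 9, on the right, GATA3 is high and ZFPM2 is at 84.0 CPM or less, while MEIS1 is present in every subcluster.

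Partners of ZFPM2 were listed too. GATA6, a possible partner of ZFPM2, was highest in STROMA, at 119 and 81.9 CPM, a ratio of -0.54 (-0.85 to -0.22). GATA4 was nearly absent, with 2 and 0 UMIs in STROMA. NR2F2, a nuclear receptor and partner of ZFPM2, had 273 and 314 CPM.

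Between the libraries, levels in the highest named class, taken as a whole, were close for most factors. For 8 of the 10 factors the ratio lay within 0.5 of 0, and the median of the 10 was 0.02. Counting intervals lay above 0 for SIM2, ESRRB and POU2F3, below 0 for HNF4A and FOXI1, and held 0 for the other 5. HNF4A had a ratio of -0.07 (-0.12 to -0.01), which was also the median of all genes in PT (-0.07) and turned to 0.03 with TMM scaling. SIM2 had a ratio of 0.38 (0.25 to 0.51). ETV4 had -0.02 (-0.39 to 0.36). ZFPM2 had -0.05 (-0.14 to 0.05) in STROMA as a whole, but stromal subclusters lay on both sides of 0. The ratio was -1.89 (-2.70 to -1.13) in subcluster 4 and -0.93 (-1.60 to -0.32) in subcluster 10. It was 0.68 (0.33 to 1.05) in subcluster 0 and 0.36 (0.19 to 0.53) in subcluster 2.

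Ratios of 2-fold or more were seen for 2 of the 10: POU2F3 in PODO (1.03) and FOXI1 in IC-A (-1.08). Among all genes with at least 30 UMIs in a class, 7.61% of 3720 genes were at least 2-fold apart in PODO and 6.89% of 8873 in IC-A. In the other home classes the share was 8.75% in PT, 5.89% in LOH, 5.24% in DCT, 10.2% in PC and 11.5% in STROMA. In unnamed cluster 11, where POU2F3 had its highest level, the share was 6.85%, and the ratio of POU2F3 (0.76) was under 2-fold. For the classes in which genes of the lists described here had their highest level, it was 5.51% in EC, 6.98% in CNT, 5.87% in IC-B, 5.83% in INJ-PT, 7.95% in THIN, 7.78% in IMM, 17.8% in CYCLING and 8.49% in unnamed cluster 13.

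**Figure D3:**
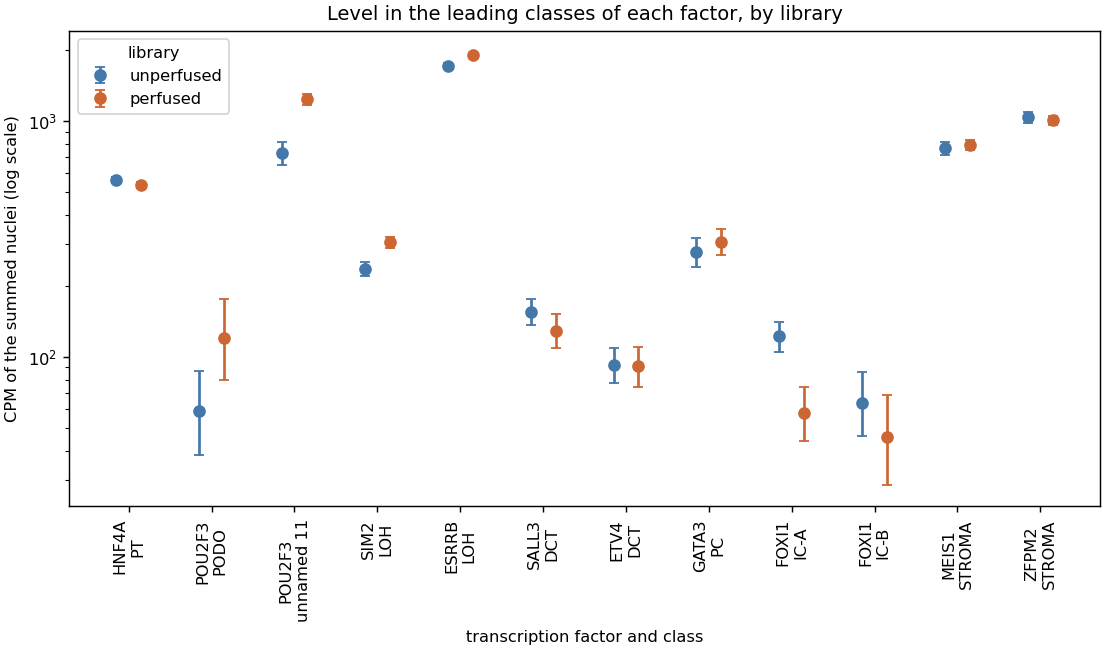
CPM (y axis, log scale) of each factor in its highest named class, with POU2F3 also in unnamed cluster 11 and FOXI1 also in IC-B, for the unperfused and perfused library. Points are the summed nuclei of 1 library and bars are exact 95% counting intervals. FOXI1 in IC-A (122 and 57.7 CPM) and POU2F3 show the widest gaps.

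**Figure D4:**
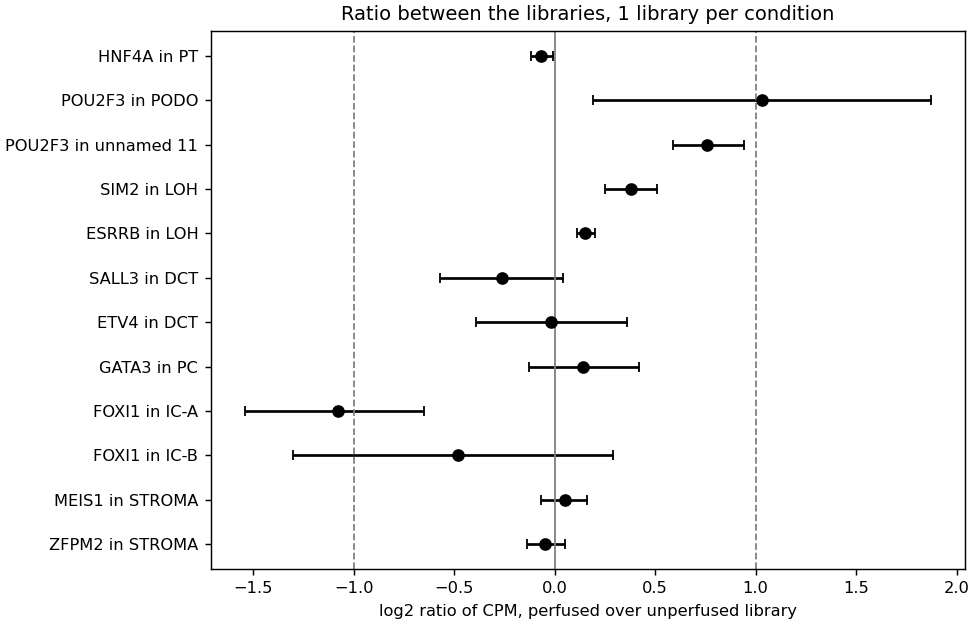
Log2 ratio of CPM, perfused over unperfused library, for the same factors and classes (y axis), with exact 95% counting intervals as bars. The solid line marks equal levels and the dashed lines 2-fold. Only FOXI1 in IC-A and POU2F3 in PODO lie beyond a dashed line among the values shown.

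Outside their main classes some factors differed more between the libraries, at low counts. MEIS1 and ZFPM2 in EC had 37.4 and 31.9 CPM unperfused and 65.1 and 55.7 CPM perfused, ratios of 0.80 (0.42 to 1.18) and 0.81 (0.40 to 1.22), and the summed stromal markers in EC were 313 and 523 CPM. HNF4A in STROMA had 58.7 and 24.4 CPM, a ratio of -1.26 (-1.79 to -0.75), where free RNA made up at most 23.3% and 9.75% of UMIs. Stromal subcluster 11 held 50 of the 74 unperfused and 15 of the 57 perfused UMIs, with a ratio of -0.65 (-1.59 to 0.20) within it. Without the 4 subclusters that had no raised marker of their best-matching list, the HNF4A ratio in STROMA was -0.46 (-1.45 to 0.54). SALL3 in LOH had 12.4 and 3.23 CPM from 41 and 16 UMIs, a ratio of -1.94 (-2.87 to -1.07). Cluster 15, with 100 of 748 and 72 of 806 LOH nuclei, held 37 and 15 of these UMIs, and within it the ratio was -1.30 (-2.27 to -0.40). The part of stromal and free RNA in these ratios was not tested.

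HNF4A, the genes it is known to drive and other proximal tubule genes were all lower in INJ-PT. This class was named from 3 raised markers, DCDC2, SPP1 and ITGB8. The listed HAVCR1, VCAM1, PROM1, ITGB6, LCN2 and KRT18 were not among the raised genes. DCDC2 had 773 and 1218 CPM in INJ-PT and was higher in unnamed cluster 13, at 1429.5 and 1802 CPM. The 11 PT markers summed to 6892 and 7084 CPM in INJ-PT against 18185 and 18730.4 CPM in PT. All 12 listed targets with counts lay below PT, 8 of them at least 2-fold, with a median log2 ratio of -2.38. The 8 PT markers outside that list also lay below PT, 5 of them at least 2-fold, with a median of -1.63, SLC5A12 (-2.82) and CUBN (-1.26) among them. The gluconeogenic enzymes G6PC1 (-2.96), PCK1 (-2.52) and FBP1 (-2.24) and the phosphate carrier SLC34A1 (-2.55) were lower than HNF4A itself (-1.87), whereas the glucose carrier SLC2A2 (-0.68) was nearer to PT. Of all 13836 genes compared between these classes, 9.97% were at least 2-fold below PT and the median was 0.17. These genes took part in the clustering that separated the classes, so the values are a description.

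**Figure D5:**
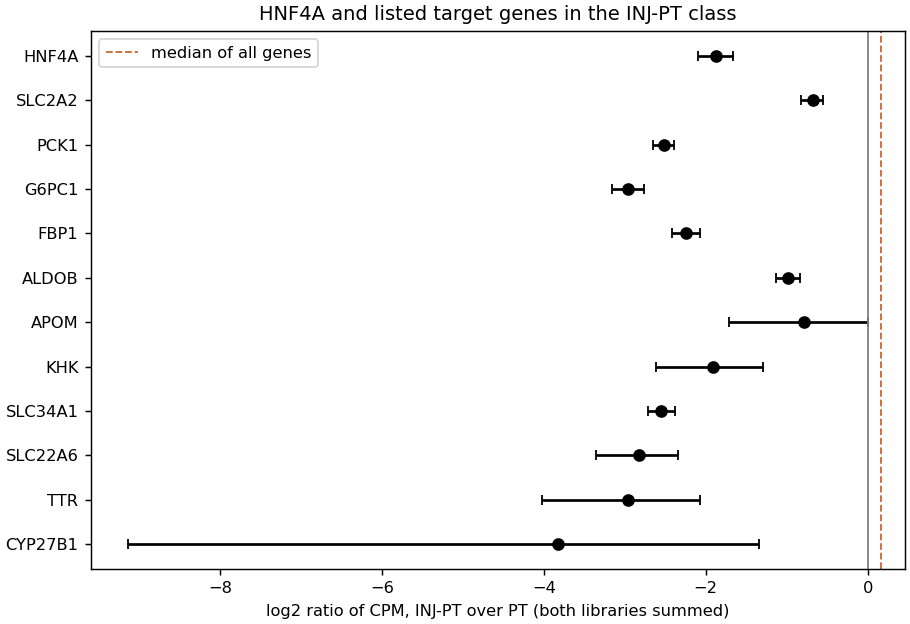
Log2 ratio of CPM in INJ-PT over PT nuclei, both libraries summed (x axis), for HNF4A and 11 listed target genes (y axis), with exact 95% counting intervals as bars. The solid line marks equal levels and the dashed line the median of all genes, 0.17. Every point lies to the left of both lines.

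Between the libraries, in contrast, none of the same 12 targets was 2-fold apart in its highest group, and their median ratio was -0.12. In PT, G6PC1 had 1337 and 1221 CPM, PCK1 had 2165 and 2345 CPM and SLC34A1 had 1473 and 1327 CPM.

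Read by class, the factors formed combinations. Counting a factor as present where its mean CPM was 20% or more of its highest mean, DCT held SALL3, ETV4, GATA3 and ESRRB, CNT held GATA3 and ESRRB, and PC held GATA3 alone. LOH held SIM2 and ESRRB, both intercalated classes held GATA3 and FOXI1, and STROMA held MEIS1, ZFPM2 and GATA3. IMM also held 3, HNF4A, MEIS1 and ZFPM2, beside the PT and stromal markers given above for these nuclei. PT, INJ-PT and CYCLING held HNF4A alone, THIN held SIM2 and unnamed cluster 13 held MEIS1. Cluster 11 held HNF4A and POU2F3. EC and PODO held none of the 10 by this rule.

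Genes with the most similar pattern over the 14 named classes were taken by Pearson correlation of log2 (CPM + 5) from 7142 genes. For HNF4A they were TINAG (0.990), AKR1C2 (0.984) and GRAMD1B (0.983), and for ZFPM2 KCND3 (0.985), FBLN5 (0.981) and ADAMTSL2 (0.976). FOXI1 was closest to SNAP91 (0.979), SLC4A9 (0.978) and SLC31A2 (0.974), and ETV4, after SALL3, to SLC12A3 (0.967) and CNTD1 (0.961). ESRRB was closest to TFAP2B (0.954), another factor of the distal nephron, SHISAL2A (0.949) and USP24 (0.947).

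The others had looser matches. MEIS1 was closest to JAK2 (0.957), ZEB2 (0.948) and PID1 (0.942), SIM2 to CDH4 (0.916), DSCAML1 (0.909) and SLC12A1 (0.883), and GATA3 to PLSCR1 (0.884) and PPARG (0.872). SALL3 was closest to ETV4, CNTD1 (0.968) and TRIM50 (0.944). POU2F3 was closest to REEP2 (0.927), PRKCI (0.921) and MFAP2 (0.914), a match that reads PODO only, since cluster 11 has no name and was not among the 14 classes. All these correlations share the same libraries and classes.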

How the data were processed

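Nuclei of 1 unperfused and 1 perfused pig kidney cortex were profiled with a droplet 3' kit. The authors deposited gene-by-barcode UMI count matrices per library, made with Cell Ranger 5.0.1 per the labels, on a pig reference (Ensembl Sscrofa v103) with introns counted. Whole-number counts as deposited were used.

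Nuclei entered with 500 to 6000 detected genes, a mitochondrial share of 7% or less and no doublet call from Scrublet (scanpy 1.11.5; 641 and 489 calls). These limits follow the study's methods, but its earlier removal of ambient RNA with SoupX was not applied here. Seurat 5.3.0 (R 4.3.3) integrated the libraries (2000 variable genes, 30 anchor dimensions, 15 components) and clustered them at resolution 0.5. The 10 factors, their paralogs and other listed factors were left out of the variable genes. For each cluster, the 1 of 15 fixed lists with the highest mean log2 fold over other nuclei was taken. A cluster was named from at least 3 raised markers of that list.

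Counts were summed by class and library, with exact Poisson, binomial and conditional binomial 95% intervals for counting error alone. In ratios, 3 counts stood in for 0. A factor's home class was the named class with the highest mean CPM. The count of UMIs per library was 34415254 and 35525592. With 1 library per condition no test was made.

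Named genes are the 10 factors, genes of the fixed lists, markers, and the 3 closest genes to each factor by pattern. The factors, lists and markers were chosen with earlier results of these data known. Values of a few listed genes are not reported here. The scripts recovered known ratios on simulated counts, and shares of nuclei were not simulated. Other resolutions, doublets kept, a clustering with the factors allowed, no mitochondrial limit, no integration, edgeR 4.0.16 and DESeq2 1.42.0 scaling, free RNA subtraction, stroma without 4 subclusters, thinning and equal weight per nucleus were tried.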

Additional observations from a re-analysis of the deposited data

Results flagged for a closer look

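ESRRB had intervals on opposite sides of 0 in different classes for the ratio of perfused over unperfused library. The log2 ratio was 0.15 in LOH, 0.21 in CNT and 0.24 in DCT, the classes where it is abundant. It was -0.72 in PT (85 and 42 UMIs) and -0.93 in STROMA (103 and 100 UMIs, of which 87 and 76 lay in stromal subcluster 8). It was -2.37 in unnamed cluster 11, where 16 of the 33 unperfused UMIs were in 1 nucleus, and 2.62 in INJ-PT, where 18 of the 31 perfused UMIs were in 1 nucleus. With 1 library per condition, whether these ratios differ between classes was not tested.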

How the results depend on the processing

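Each of the 10 factors kept its home class under each alternative tried (9 of 10 when unnamed clusters were counted as classes, POU2F3 moving to cluster 11), and the number of factors with a home class at least 2-fold above the next was 7, and between 6 and 8 in the alternatives (with doublets kept, MEIS1 and ZFPM2 fell below 2-fold, at 0.42 each, and SIM2 rose above it, at 2.43). The number at least 2-fold apart between libraries, 2, was 1 with doublets kept (POU2F3 in PODO at 0.69), 1 with free RNA subtracted (POU2F3 at 0.99), 1 when unnamed clusters were counted as classes, an alternative chosen after seeing the data, and 0 after thinning, where POU2F3 was at 0.20 on 5 and 2 UMIs and FOXI1 in IC-A at -0.56 on 36 and 11 UMIs. In the other alternatives FOXI1 in IC-A lay between -1.02 and -1.11. The cause of these shifts was not tested. POU2F3 in cluster 11 lay between 0.67 and 0.88 over all 7 clusterings. Small ratios changed sign: MEIS1 in STROMA ranged from -0.17 to 0.42 and ZFPM2 from -0.27 to 0.29, so no direction is read from them, and HNF4A in PT reached 0.03 with TMM factors. With at least 10 UMIs in place of 30, the share of all genes 2-fold apart was 14.3% in PT, 11.5% in LOH, 12.1% in DCT, 17.7% in PC, 18.2% in PODO, 13.7% in IC-A and 18.1% in STROMA. No paired analysis was possible because each condition has 1 library, and leaving out a replicate was not possible for the same reason.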

Other observations

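Relatives of the 10 factors were read in the same way, from a list of 21 paralogs of which 20 were in the files. SIM1, the paralog of SIM2, was as high in DCT as in LOH (427 CPM on average in each), whereas SIM2 was nearly absent from DCT. ESRRG, the paralog of ESRRB, was highest in IC-A, at 3578 CPM unperfused and 5499 CPM perfused, a ratio of 0.62 (0.57 to 0.67). MEIS2 was highest in EC, at 3431 and 4199 CPM, where MEIS1 had 37.4 and 65.1 CPM. GATA2 was highest in CNT (119 and 124 CPM) and PC, and GATA5 in EC (37.4 and 38.2 CPM). HNF4G followed HNF4A, with 186 and 199 CPM in unnamed cluster 11 and 172 CPM on average in PT. Among 12 paralogs with at least 30 UMIs in their highest group, none was 2-fold apart between libraries. Over all genes the share 2-fold apart in those groups ran from 5.24% in DCT to 17.8% in CYCLING.

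A second list held other transcription factors of the kidney. Of 54 listed, 50 were in the files and 40 had enough UMIs in their highest group. ELF3, an epithelial ETS factor, was 2-fold apart in PC, at 52.8 and 114 CPM, a ratio of 1.11 (0.55 to 1.68). SPI1, a myeloid factor, was 2-fold apart in IMM, at 31.2 and 63.4 CPM, a ratio of 1.02 (0.24 to 1.91). None was 2-fold lower, and the median of the 40 was 0.15. Over all genes the share at least 2-fold apart was 10.2% in PC and 7.78% in IMM. In podocyte-like nuclei LMX1B had 326 and 401 CPM, WT1 had 1794 and 1396 CPM and TCF21 had 161 and 156 CPM. In IC-A, DMRT2 had 191 and 206 CPM beside the lower FOXI1.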
